A study of Rattus norvegicus with 52 samples.

Results

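Cells rich in Apoe transcripts were set against cells with none among 52 single macrophages from induced arterial aneurysms of the rat. A cell counted as Apoe-rich when its library held 50 or more raw Apoe counts, and as Apoe-negative when it held 0. This gave 10 Apoe-rich cells (1, 5 and 4 in rats 1, 2 and 3) and 32 Apoe-negative cells (4, 13 and 15 in rats 1, 2 and 3). The other 10 cells, 5 each of rats 2 and 3, had 1 to 49 Apoe counts and were left out of both classes. Apoe counts in the Apoe-rich cells ran from 70 to 3411 with a median of 203.5. The cells were chosen by these counts, so the counts are a description and Apoe was given no test. Just inside the threshold lay rat 2 cell 10 with 70 Apoe counts among 7908 in all, rat 3 cell 33 with 84 among 37601 and rat 3 cell 43 with 92 among 39018. Just outside it lay rat 2 cell 19 with 39 among 13352, rat 3 cell 38 with 31 among 61402 and rat 2 cell 27 with 15 among 15201.

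Both classes came from the same 3 animals, male Sprague Dawley rats labelled as 7 weeks old, and carry the same treatment. A carotid bifurcation had been built surgically, the left renal artery tied, and the chow was made up with 3-aminopropionitrile at 0.12%, which inhibits lysyl oxidase and so weakens collagen and elastin, and with salt at 8%. Nanoparticles with the dye DiI were injected, which mark cells that take up particles, and 3 days later labelled cells were cut out of the lesion with a laser and sequenced one by one with a full-length cDNA kit. A laser cut through a vessel wall can carry material of adjoining cells, and the labels give no second marker for the macrophages.

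Apolipoprotein E is a secreted carrier of cholesterol and phospholipid, and macrophages that load and clear lipid make it in quantity. Such cells typically also express lysosomal proteases such as cathepsin B (Ctsb), the lysosome-associated glycoprotein Gpnmb, and ferritin, whose heavy chain is Fth1. Apoe is not a marker of macrophages alone, since fibroblasts, smooth muscle cells and adipocytes can express it too.

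Libraries were shallow and uneven, and the Apoe-rich ones were on the whole deeper. Total counts were 7908 at the lowest, 22150 at the median and 53095 at the highest in Apoe-rich cells, against 2141, 14921.5 and 84848 in Apoe-negative cells. Averaged within each rat, the total was 30141 ± 12189 counts in Apoe-rich cells and 18553 ± 6572 in Apoe-negative cells (SD, n = 3 rats), a difference of 11588 ± 5798 that was positive in 3 of 3 rats. The ranges overlapped, and the highest total of all belonged to an Apoe-negative cell. A rule on raw counts is reached more easily by a deep library, so differences between the lists are given below also after thinning every cell to 7908 counts, the total of the shallowest Apoe-rich cell, which keeps 27 of the 32 Apoe-negative cells. As a yardstick, 3.53% ± 2.16 of all 22081 genes in the table stood at 5 or more counts in an Apoe-rich cell and 1.63% ± 0.50 in an Apoe-negative cell (SD, n = 3 rats). That difference of 1.90 points became 0.356 points with thinning and 0.833 points without rat 1, whose single Apoe-rich cell weighs as much in the mean over rats as the cells of another rat together.

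Genes were tested across the whole table on counts summed per rat and class, with the rat as a block, by edgeR's quasi-likelihood test with Benjamini-Hochberg adjustment. Of 815 genes that passed the filter on low sums, 0 were called at an adjusted p under 0.05, that is 0% higher and 0% lower in Apoe-rich cells, and the smallest adjusted p by edgeR was 0.188. At an unadjusted p under 0.05 edgeR gave 44 genes higher (5.4%) and 12 lower (1.47%). DESeq2 called 62 higher (7.61%) and 13 lower (1.6%) on the same sums at an adjusted p under 0.05. Summed levels were higher in Apoe-rich cells in all 3 rats for 71 genes (8.71%) and lower in all 3 for 221 (27.1%), and the median log2 fold change over tested genes was -0.18. None of the genes below therefore passed edgeR's threshold, but many of them were not among the genes tested. Of the macrophage identity list 4 of 21 genes were tested, and of the lysosomal protease list 2 of 14. A gene given without an adjusted p should not be read as tested. The spread over rats is given where a ratio or a share of a list is printed, and other genes have counts per cell only. P-values rest on 3 rats, of which rat 1 gave 1 Apoe-rich cell, and on classes drawn from the same libraries. The filter on low sums could be passed on the sums of 1 class alone. Ctsb, Cd63, C1qc, Ndufs8 and Tubb2a, each at 0 throughout 1 class, entered that way. Their direction was thus fixed by the filter and is no separate support. Levels below are CPM, the count of a gene scaled to the total of the summed cells of a rat. Ratios between classes are log2 of the levels after adding 10 CPM, which understates changes of low genes.

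Cathepsin B, a lysosomal cysteine protease, was found in most Apoe-rich cells and in no Apoe-negative cell. Ctsb had 807 counts in rat 3 cell 39, 543 in rat 2 cell 7, 185 in rat 1 cell 4, 26 in rat 2 cell 14, 19 in rat 2 cell 13, 5 in rat 2 cell 10, 3 in rat 3 cell 33 and 0 in the remaining 3 Apoe-rich cells, against 0 in all 32 Apoe-negative cells. Every count of Ctsb in the classes compared thus sat in 7 Apoe-rich cells, and 0 of 32 cells allows a share of cells with a count of up to 9.38%, a limit that takes the cells as independent and covers counting error only. The summed level was 5114, 7361 and 5310 CPM in Apoe-rich cells of rats 1, 2 and 3, against 0 CPM in Apoe-negative cells of each rat. Set against a floor of 3 counts over all Apoe-negative cells, Ctsb was at least 1150-fold higher in Apoe-rich cells, and at least 705-fold without rat 3 cell 39. Its adjusted p was 0.188 by edgeR's quasi-likelihood test. Thinned to equal depth, 58.9% of Apoe-rich cells and 0% of Apoe-negative cells would be at 5 or more counts.

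Gpnmb had 219, 185, 116, 24, 10 and 1 counts in 6 Apoe-rich cells and 0 in 4, against at most 2 counts in Apoe-negative cells, 3 of which had any. The 5 Apoe-rich cells with 10 or more stood above every Apoe-negative cell, and the other 5 lay within their range. Summed levels were 5114, 2855 and 918 CPM in Apoe-rich cells of rats 1, 2 and 3 and 0, 13.8 and 8.4 CPM in Apoe-negative cells, a log2 ratio of 7.19 ± 1.69 (SD, n = 3 rats; adjusted p = 0.188, edgeR).

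Ferritin heavy chain, the iron-storing subunit with ferroxidase activity, was the broadest of the 3 genes. Fth1 had 0 counts at the lowest, 27 at the median and 472 at the highest in Apoe-rich cells, with 5 or more in 7 of 10, against 0, 0 and 113 in Apoe-negative cells, with 5 or more in 4 of 32. The classes overlapped. Levels reached 13047, 2781 and 2780 CPM in Apoe-rich cells of rats 1, 2 and 3 against 314, 0 and 339 CPM in Apoe-negative cells, a log2 ratio of 5.48 ± 2.57 (SD, n = 3 rats; adjusted p = 0.442, edgeR). The light chain Ftl1 showed a smaller difference, with 5 or more counts in 4 of 10 Apoe-rich and 3 of 32 Apoe-negative cells and a log2 ratio of 3.23 ± 3.74 (SD, n = 3 rats). All 4 Apoe-rich cells with Ftl1 at that level also had Fth1. Both chains have near-identical copies in the genome, so their counts are uncertain. Over 16 ferritin and iron genes the share at 5 or more counts was 16.2% ± 7.6 in Apoe-rich and 6.55% ± 4.07 in Apoe-negative cells (SD, n = 3 rats), and the difference of 9.70 points was 8.70 points with thinning, higher in 3 of 3 rats either way.

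**Figure D1:**
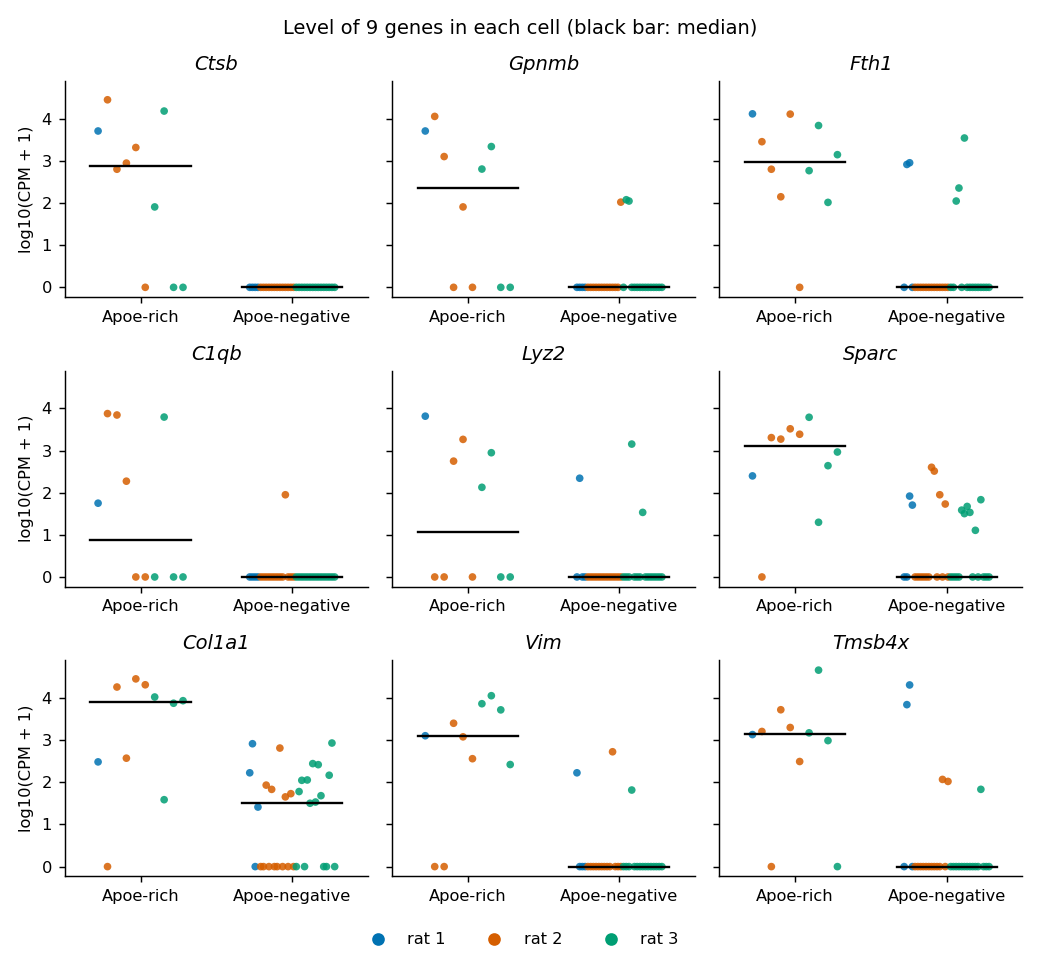
Level of 9 genes in each Apoe-rich (left, 10 cells) and Apoe-negative (right, 32 cells) cell as log10(CPM + 1), coloured by rat, with a black bar at the median. Ctsb lies at 0 in all 32 Apoe-negative cells and Gpnmb reaches at most 2 counts there, and each of the 9 genes is also at 0 in at least 1 Apoe-rich cell.

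Genes of the lysosome often carry short E-box elements near their start, which factors of the MITF and TFE family bind. The 250 bases before the gene start in RefSeq's GRCr8 table were searched on both strands for TCACGTGA, which is its own reverse complement, and for TCACATGA with its reverse complement TCATGTGA. No 8 bases can be both motifs. Of 56 measured genes on the lysosomal protease, lysosomal membrane and lipid-associated lists, 42 had an entry. TCACGTGA was in 3 of the 42 (7.14%), against 213 of 27457 genes with an entry (0.776%), and TCACATGA in 6 (14.3%), against 298 (1.09%). The stretches of 4 genes are printed 5′ to 3′ on the gene's strand with the motif in capitals, since Gpnmb and Cd63 had few or no counts in Apoe-negative cells, Ctsd had many in 1 of them, and Lamp1 had counts in all of them.
Gpnmb, chr4:79341079-79341127, plus strand: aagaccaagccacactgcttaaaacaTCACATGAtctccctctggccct
Cd63, chr7:1922001-1922060, plus strand: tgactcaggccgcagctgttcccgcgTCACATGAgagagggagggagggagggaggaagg
Ctsd, chr1:206968822-206968858, minus strand: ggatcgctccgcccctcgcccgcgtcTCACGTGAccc
Lamp1, chr16:83075096-83075155, minus strand: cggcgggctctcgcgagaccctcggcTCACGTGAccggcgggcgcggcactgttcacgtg
The motif begins 23 bases before the start of Gpnmb, 117 before that of Cd63, 11 before that of Ctsd and 66 before that of Lamp1. A match describes letters only.

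Those 4 genes spread widely in the counts. Cd63, a tetraspanin of late endosomes and lysosomes, had 80, 19, 13 and 1 counts in 4 Apoe-rich cells and 0 in 6, against 0 in all 32 Apoe-negative cells, so it was at least 81.9-fold higher against the floor of 3 counts, and at least 29.8-fold without rat 3 cell 39 (adjusted p = 0.19, edgeR). Lamp1, a main glycoprotein of the lysosomal membrane, was at 5 or more counts in 10 of 10 Apoe-rich cells and 31 of 32 Apoe-negative cells, with a log2 ratio of 0.60 ± 0.55 (SD, n = 3 rats). Ctsd, the aspartic protease cathepsin D, had 36, 31, 7 and 2 counts in 4 Apoe-rich cells, against 90 counts in 1 Apoe-negative cell and 0 in the other 31. The classes overlapped for each of them.

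Lysosomal proteases and their cystatin inhibitors, a list that includes Ctsb, were higher in Apoe-rich cells, as were several other lists. An Apoe-rich cell held 25.7% ± 22.0 of the 14 members at 5 or more counts and an Apoe-negative cell 1.35% ± 1.94 (SD, n = 3 rats). The difference was 46.4, 20.0 and 6.67 percentage points in rats 1, 2 and 3, a mean of 24.4 points. The mean was 15.8 points with thinning and 13.3 points without rat 1. All 3 rats had the same sign, and the single Apoe-rich cell of rat 1 gave the largest difference. Legumain (Lgmn), an asparagine-specific protease, had 5 or more counts in 3 of 10 Apoe-rich cells, with 95 at the most, and in 0 of 32 Apoe-negative cells. Cystatin C (Cst3), an inhibitor of cathepsins, had 5 or more in 4 of 10 and in 1 of 32. The proton pump subunit Atp6v0c, on the lysosomal membrane list, had 5 or more in 3 of 10 and 0 of 32, with 201 of its 229 Apoe-rich counts in rat 2 cell 20. That list of 30 genes stood at 15.6% ± 12.5 in Apoe-rich and 4.55% ± 1.16 in Apoe-negative cells (SD, n = 3 rats), and its difference of 11.1 points became 2.87 points with thinning and 4.51 points without rat 1.

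Macrophage identity genes were more often found in Apoe-rich cells, as were ribosomal protein genes (17.8 points) and translation and housekeeping genes (14.4 points). Apoe-negative libraries gave a smaller share of counts to ribosomal protein genes, 0.393% against 4.02% at the median, and thinning equalises totals only. Whether the markers differ with cell identity or with library content was not tested. Few markers therefore do not decide the label of a cell as a macrophage. Of 21 markers, an Apoe-rich cell held 26.0% ± 18.7 at 5 or more counts and an Apoe-negative cell 2.98% ± 0.71 (SD, n = 3 rats), and the difference was 44.0, 14.0 and 11.1 points in rats 1, 2 and 3. Its mean of 23.1 points became 15.8 points with thinning and 12.6 points without rat 1. Among Apoe-rich cells 6 of 10 held 3 or more of the markers, against 0 of 32 Apoe-negative cells, and 20 of the 32 held none at that level. Lysozyme (Lyz2), secreted by phagocytes, had 236, 47, 23, 12 and 5 counts in 5 Apoe-rich cells and 0 in the others, against 3 Apoe-negative cells with any and a highest of 44. Cd68, a glycoprotein of macrophage endosomes, had 95, 33 and 14 counts in 3 Apoe-rich cells, against 1 count at most in Apoe-negative cells. Csf1r, the receptor for the macrophage growth factor CSF1, had 192 counts in rat 3 cell 39 and 9 in rat 2 cell 13 and 3 or fewer in the other 8, against 2 at most in Apoe-negative cells. Other surface proteins of macrophages were not found more in Apoe-rich cells, and had few counts in either class. Adgre1 and Mertk were at 0 in all 10 Apoe-rich cells and each had up to 5 counts in 5 Apoe-negative cells, Cd14 was at 0 in all 10 and had 1 count in 1 Apoe-negative cell, and Itgam had 2 counts in 1 Apoe-rich cell against up to 16 in 3 Apoe-negative cells. Cd68, Csf1r, Cd14, Adgre1, Mertk and Itgam were picked for mention after their values were seen.

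Complement C1q, the recognition molecule of the classical pathway that tissue macrophages secrete, was strong in few cells. C1qa had 579 counts in rat 3 cell 39 and 252 in rat 2 cell 7 and 0 in the other 8 Apoe-rich cells, against 5 counts in 1 Apoe-negative cell. C1qb reached 330, 145 and 55 counts in 3 Apoe-rich cells, against 2 counts in 1 Apoe-negative cell. C1qc had 223, 113, 12, 11 and 5 counts in 5 Apoe-rich cells and 0 in all 32 Apoe-negative cells, at least 264-fold higher against the floor and at least 127-fold without rat 3 cell 39 (adjusted p = 0.19, edgeR). The 3 chains form 1 protein, yet C1qc in rat 2 cell 20 came with 0 counts of the other two. C1r, on the same list and picked for mention after its values were seen, went the other way. It had 4 counts at the most in Apoe-rich cells and 19 in Apoe-negative cells. Of the 2 complement genes tested, 1 was higher and 1 lower in Apoe-rich cells in all 3 rats. Over the 13 complement genes the difference in the share at 5 or more counts was 11.7 ± 2.32 points (SD, n = 3 rats), with 12.9% ± 2.99 in Apoe-rich and 1.21% ± 0.70 in Apoe-negative cells. With thinning it was 5.22 ± 4.15 points and uneven over rats, at 0.434, 7.82 and 7.39 points in rats 1, 2 and 3.

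Fc receptor and adaptor genes, which carry signals of antibody-coated particles, were also higher. An Apoe-rich cell held 18.8% ± 14.6 of 14 members at 5 or more counts and an Apoe-negative cell 2.41% ± 1.21 (SD, n = 3 rats). The difference of 16.4 points became 8.23 points with thinning and 7.63 points without rat 1. The adaptor chain Fcer1g had 27, 26, 16 and 4 counts in 4 Apoe-rich cells and 0 in all Apoe-negative cells. The adaptor Tyrobp, chosen for mention after its values were seen, had 38 and 18 counts in 2 Apoe-rich cells and 2 or fewer in the others, against at most 5 in Apoe-negative cells. Fcgr3a did not follow them, with 5 or more counts in 3 of 10 Apoe-rich and 5 of 32 Apoe-negative cells and 11 against 18 at the most. Other members went either way. At the most, Lyn had 1 count in Apoe-rich and 256 in Apoe-negative cells, and Fcgr2b 15 and 18. Fcgr2a had 43 and 0, and Syk 26 and 6. Lyn, Fcgr2b, Fcgr2a and Syk were picked for mention after their values were seen.

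Genes of lipid handling differed member by member. The lipid-associated macrophage list includes Gpnmb, Cd63 and Ctsd, given above, and is not separate from them. Apoe itself aside, an Apoe-rich cell held 22.9% ± 23.7 of the 16 members of the lipid-associated macrophage list at 5 or more counts and an Apoe-negative cell 1.70% ± 2.59 (SD, n = 3 rats). The difference was 45.3, 12.5 and 5.83 points in rats 1, 2 and 3, and its mean of 21.2 points became 13.4 points with thinning and 9.17 points without rat 1. The lipid-sensing receptor Trem2 had 8, 7, 7 and 5 counts in 4 Apoe-rich cells and 0 elsewhere in both classes, a low level at which 1 read matters. Other members of that list did not follow it. Msr1 was at 0 in all 10 Apoe-rich cells and had up to 5 counts in Apoe-negative cells. At the most, Fabp5 had 2 counts in Apoe-rich and 8 in Apoe-negative cells, and Olr1 had 1 and 4. Msr1, Fabp5 and Olr1 were picked for mention after their values were seen. Pltp, the phospholipid transfer protein, had 199, 60, 37, 30, 24 and 1 counts in 6 Apoe-rich cells, against 16 counts in 3 Apoe-negative cells together. Its level was alike over rats, 1659, 1142 and 1305 CPM in Apoe-rich cells of rats 1, 2 and 3, against 0, 103 and 2.8 CPM in Apoe-negative cells (log2 ratio 5.80 ± 2.16, SD, n = 3 rats; adjusted p = 0.266, edgeR). All 5 cells with Pltp at 5 or more counts also had Ctsb, 5 of its 6 cells. Lrp1, a receptor that takes up Apoe particles, had 5 or more counts in 2 of 10 Apoe-rich cells and 0 of 32 Apoe-negative cells. Srebf2, the regulator of cholesterol synthesis, had 5 or more in 2 of 10 and 4 of 32. The list of 19 cholesterol efflux genes and apolipoproteins other than Apoe stood at 9.39% ± 5.98 in Apoe-rich and 1.63% ± 0.87 in Apoe-negative cells (SD, n = 3 rats), and its difference of 7.75 points became 4.80 points with thinning and 5.05 points without rat 1.

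Lists of proinflammatory and alternative activation separated the classes little. For the 17 proinflammatory genes the share at 5 or more counts was 2.35% ± 3.11 in Apoe-rich cells and 0% in Apoe-negative cells (SD, n = 3 rats). The chemokine Ccl3 had 10, 7 and 1 counts in 3 Apoe-rich cells and 0 in all Apoe-negative cells. For 14 genes of alternative activation the shares were 11.5% ± 6.35 in Apoe-rich and 6.91% ± 3.60 in Apoe-negative cells, and with thinning the difference kept its sign in 1 of 3 rats. The mannose receptor Mrc1, often used to mark that state, had 5 or more counts in 2 of 10 Apoe-rich and 5 of 32 Apoe-negative cells. The growth factor Igf1 had 140, 74, 16 and 10 counts in 4 Apoe-rich cells and 0 or 1 in the others, against 5 at most in Apoe-negative cells. Resident and scavenger receptor genes (14) stood at 13.5% ± 6.93 and 6.30% ± 2.83, antigen presentation genes (18) at 10.0% ± 5.88 and 2.31% ± 4.01, and matrix proteases and inhibitors (16) at 5.31% ± 0.83 and 1.48% ± 1.44 in Apoe-rich and Apoe-negative cells. Differences of these 3 lists were 7.16, 7.69 and 3.83 points, each positive in 3 of 3 rats. Thinned differences of these 3 lists were 3.55, 4.90 and 1.17 points, the last with the same sign in 2 of 3 rats.

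**Figure D2:**
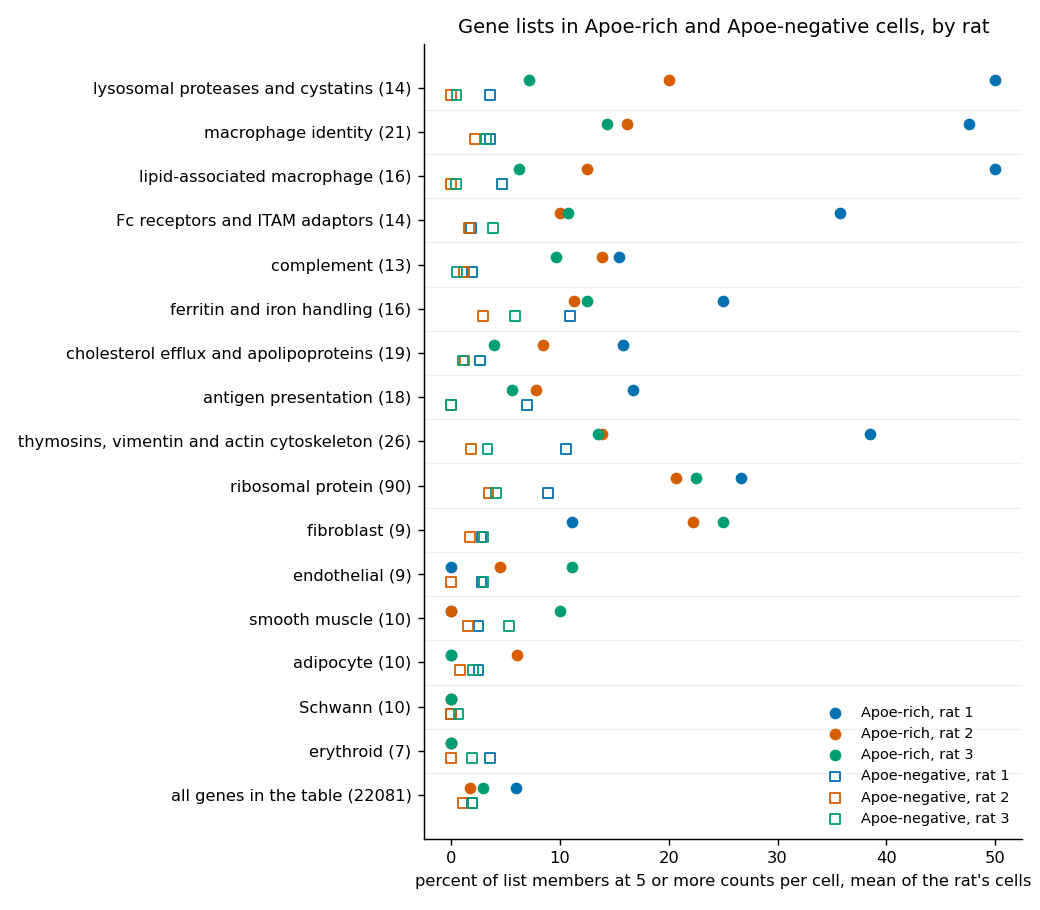
Percent of each list's measured members (number in brackets) at 5 or more counts per cell, averaged over the cells of a rat, for Apoe-rich cells (filled circles) and Apoe-negative cells (open squares), coloured by rat. The macrophage, lysosomal, complement, ferritin, cytoskeleton, ribosomal protein and fibroblast lists lie higher in Apoe-rich cells in 3 of 3 rats on these unthinned counts, as do all genes of the table at a smaller distance, and the smooth muscle list does not. With thinning the fibroblast list is higher in 2 of 3 rats.

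Several collagen and matrix genes on the fibroblast list were also higher in Apoe-rich cells, while other members were not. Of 9 fibroblast markers an Apoe-rich cell held 19.4% ± 7.35 at 5 or more counts and an Apoe-negative cell 2.48% ± 0.68 (SD, n = 3 rats), and the difference was 8.33, 20.5 and 22.0 points in rats 1, 2 and 3. The sign turned in rat 1 with thinning, at -1.58, 12.6 and 18.9 points (9.97 ± 10.5, SD, n = 3 rats), and at 1 or more counts, at -11.1, 12.8 and 16.9 points. At least 1 of these markers stood at 5 or more counts in 8 of 10 Apoe-rich and 6 of 32 Apoe-negative cells, and at least 2 in 5 of 10 and 1 of 32. Their summed level was 51.8 CPM at the lowest, 14049 at the median and 46300 at the highest in Apoe-rich cells, against 0, 209.96 and 1205 CPM in Apoe-negative cells. Pi16, a marker of adventitial fibroblasts, was at 0 in all 10 Apoe-rich cells and had 1 count in 5 Apoe-negative cells. Pdgfra, the receptor that marks many fibroblasts, had 1 count in 1 Apoe-rich cell against 8 counts in 4 Apoe-negative cells, and the surface protein Thy1 was found in 1 of 10 and 8 of 32 cells. What part these markers have in the differences of other genes was not tested. Col1a1, the main chain of type I collagen, had 0 counts at the lowest, 170.5 at the median and 398 at the highest in Apoe-rich cells, with 5 or more in 8 of 10, against 0, 1 and 17 in Apoe-negative cells, with 5 or more in 3 of 32. There were 6 Apoe-rich cells, with 144 to 398 counts, that lay above every Apoe-negative cell. The log2 ratio was 4.62 ± 3.76 (SD, n = 3 rats; adjusted p = 0.777, edgeR), with 304 against 218 CPM in rat 1 and 11247 against 41.3 CPM in rat 2. Col3a1, of type III collagen, had 5 or more counts in 5 of 10 and 0 of 32 cells, with 304 at the most. Lumican (Lum), which binds collagen fibrils, had 284 counts in rat 3 cell 45 and the gelatinase Mmp2 81 and 50 counts in rat 2 cells 20 and 14. Sfrp2, a secreted Wnt modulator made by fibroblasts, had 286, 66 and 7 counts in 3 Apoe-rich cells and 0 or 1 in the others, against at most 2 in Apoe-negative cells (adjusted p = 0.188, edgeR).

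Sparc, a collagen-binding matrix glycoprotein, was spread over nearly all Apoe-rich cells. It had 231, 47, 41, 40, 21, 17, 16, 9, 1 and 0 counts in the 10 Apoe-rich cells, against a highest of 4 in Apoe-negative cells. Of the 10 Apoe-rich cells 8 stood above all Apoe-negative cells, and the same 8 had Col1a1 at 5 or more counts. Levels were 249, 1788 and 1770 CPM in Apoe-rich cells of rats 1, 2 and 3 against 36.3, 55 and 16.8 CPM in Apoe-negative cells (log2 ratio 4.44 ± 1.81, SD, n = 3 rats; adjusted p = 0.266, edgeR). Biglycan (Bgn), a matrix proteoglycan named after its values were seen, had 5 or more counts in 5 of 10 Apoe-rich and 0 of 32 Apoe-negative cells.

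Other cell type lists differed less. Smooth muscle markers stood at 3.33% ± 5.77 in Apoe-rich cells and 3.12% ± 1.97 in Apoe-negative cells, adipocyte markers at 2.00% ± 3.46 and 1.76% ± 0.89, and endothelial markers at 5.19% ± 5.59 and 1.91% ± 1.66 (SD, n = 3 rats). The endothelial difference of 3.27 points, positive in 2 of 3 rats, became 1.11 points with thinning and 6.30 points without rat 1. Among endothelial members Vwf had 20 counts in rat 2 cell 13 and Nos3 17 in rat 2 cell 14. Apoe-negative cells had 4 at most of each. Kdr had 10 at the most in Apoe-rich and 13 in Apoe-negative cells. Tagln and Myl9, proteins of the contractile apparatus, were at 0 in all 10 Apoe-rich cells, and Acta2, smooth muscle actin, was at 5 or more counts in 2 of 10 Apoe-rich and 7 of 32 Apoe-negative cells. Other smooth muscle members were high in single Apoe-rich cells. Myocd had 173 counts in rat 3 cell 45, against 4 at most in Apoe-negative cells. Des had 6 in rat 3 cell 43, against 3 at most. T and NK cell markers stood at 7.22% ± 4.55 and 2.34% ± 2.23, and with thinning their difference was -0.99 points. Mast cell markers were at 0% in both classes, Schwann cell markers at 0% and 0.222% ± 0.385, erythroid markers at 0% and 1.83% ± 1.79, neutrophil markers at 0.833% ± 1.44 and 1.32% ± 1.62, B cell markers at 1.67% ± 2.89 and 0.321% ± 0.555, and dendritic cell markers at 0.833% ± 1.44 and 0.598% ± 0.522.

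The 10 Apoe-rich cells were not alike. Macrophage markers prevailed in 4 of them, rat 1 cell 4 (10 macrophage and 1 fibroblast marker at 5 or more counts), rat 3 cell 39 (7 and 0), rat 2 cell 7 (6 and 0) and rat 2 cell 13 (6 and 1). These 4 cells also had the 4 highest Apoe counts, from 508 to 3411, and between 0 and 11 counts of Col1a1. Fibroblast markers outnumbered or equalled macrophage markers in the other 6, from rat 2 cell 20 (1 macrophage and 5 fibroblast) and rat 3 cell 45 (1 and 4) to rat 2 cell 14 (3 and 3), rat 3 cell 33 (3 and 3), rat 3 cell 43 (1 and 2) and rat 2 cell 10 (1 and 1). These had 70 to 220 Apoe counts and 144 to 398 of Col1a1. Ctsb and Col3a1 were both at 5 or more counts in 1 cell of the 10, rat 2 cell 14, out of 6 and 5 cells, and 1 or the other was found in all 10. Since Apoe counts chose the cells and all these genes come from the same libraries, the split is a description of 10 cells with no test. It crossed rats 2 and 3, each of which had cells of either kind, whereas rat 1 had a single cell.

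**Figure D3:**
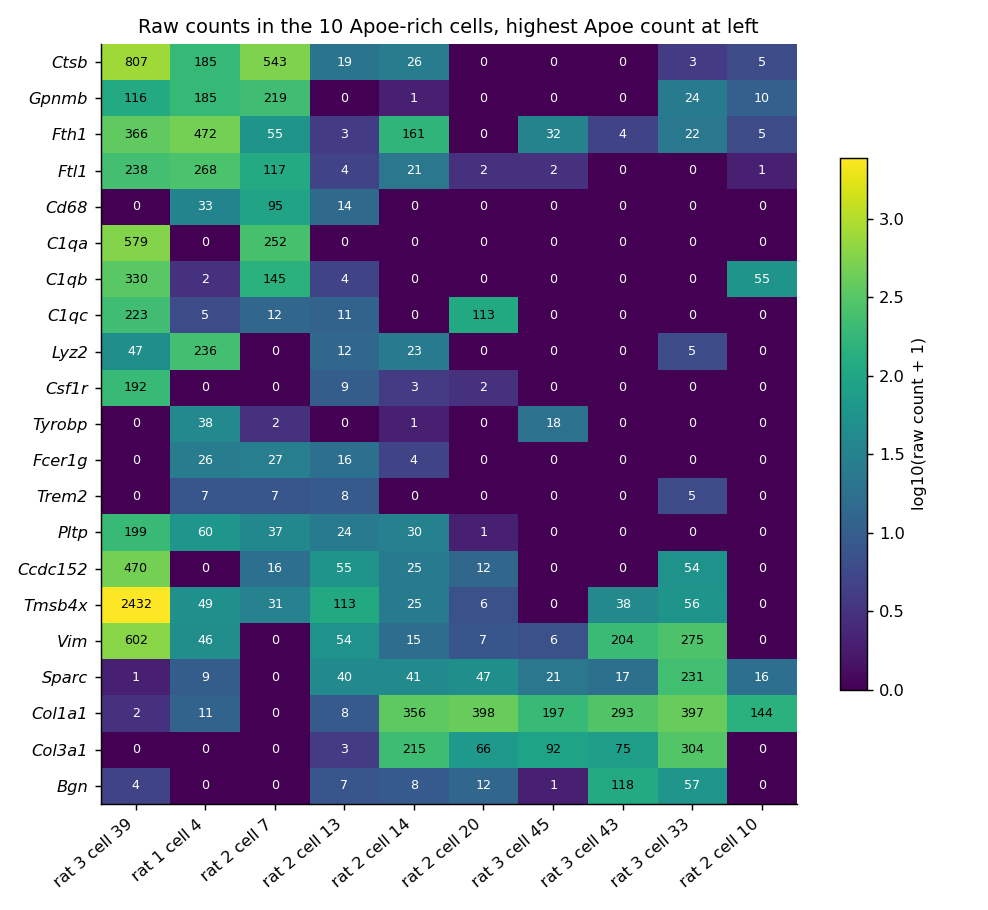
Raw counts of 21 genes in the 10 Apoe-rich cells, ordered from the highest Apoe count at the left, with colour on a log10(count + 1) scale and the count printed in each field. Cathepsin B and Pltp counts lie mostly in the 5 cells at the left, the 3 C1q genes in differing cells, Col1a1 above 100 counts in the 6 cells at the right and Col3a1 in 5 of those 6.

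Of the cytoskeletal genes, vimentin and thymosin beta 4 were at 5 or more counts in most Apoe-rich cells. Vimentin (Vim), the intermediate filament of mesenchymal and white blood cells, had 602, 275, 204, 54, 46, 15, 7 and 6 counts in 8 Apoe-rich cells and 0 in 2, against 12 at the most in Apoe-negative cells, 3 of which had any. Its log2 ratio was 5.81 ± 2.78 (SD, n = 3 rats; adjusted p = 0.349, edgeR). Tmsb4x, thymosin beta 4, which binds free actin, had 5 or more counts in 8 of 10 Apoe-rich and 2 of 32 Apoe-negative cells, yet it was lower in Apoe-rich cells in rat 1, with 1354 CPM against 4548 CPM. Of its 2750 Apoe-rich counts 2432 came from rat 3 cell 39. Tmsb4x has near-identical copies, so its counts are uncertain. The light chain Myl6 had 5 or more counts in 5 of 10 and 2 of 32 cells. Actb, an actin named after its values were seen, had 44 counts at the most in Apoe-rich and 72 in Apoe-negative cells. The whole list of 26 genes stood at 21.9% ± 14.3 in Apoe-rich and 5.23% ± 4.70 in Apoe-negative cells (SD, n = 3 rats), and its difference of 16.7 points became 9.26 points with thinning and 11.1 points without rat 1.

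Ribosomal protein genes took 1.69% of counts at the lowest, 4.02% at the median and 7.86% at the highest in Apoe-rich cells, against 0%, 0.393% and 3.36% in Apoe-negative cells. The ranges overlapped at their edges. Of the 90 genes an Apoe-rich cell held 23.3% ± 3.07 at 5 or more counts and an Apoe-negative cell 5.46% ± 2.99, a difference of 17.8 ± 0.59 points (SD, n = 3 rats). With thinning it was 9.90 ± 4.97 points and less even, at 4.17, 12.5 and 13.1 points in rats 1, 2 and 3. Rps27, of the small subunit, had 197, 144, 109, 93, 85, 40, 14, 12, 10 and 1 counts in the 10 Apoe-rich cells, against 2 counts in 1 Apoe-negative cell. Thus 9 of 10 cells lay above all Apoe-negative cells, and the adjusted p was 0.188 by edgeR. Ribosomal protein genes have many copies elsewhere in the genome, so each single count is uncertain.

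**Figure D4:**
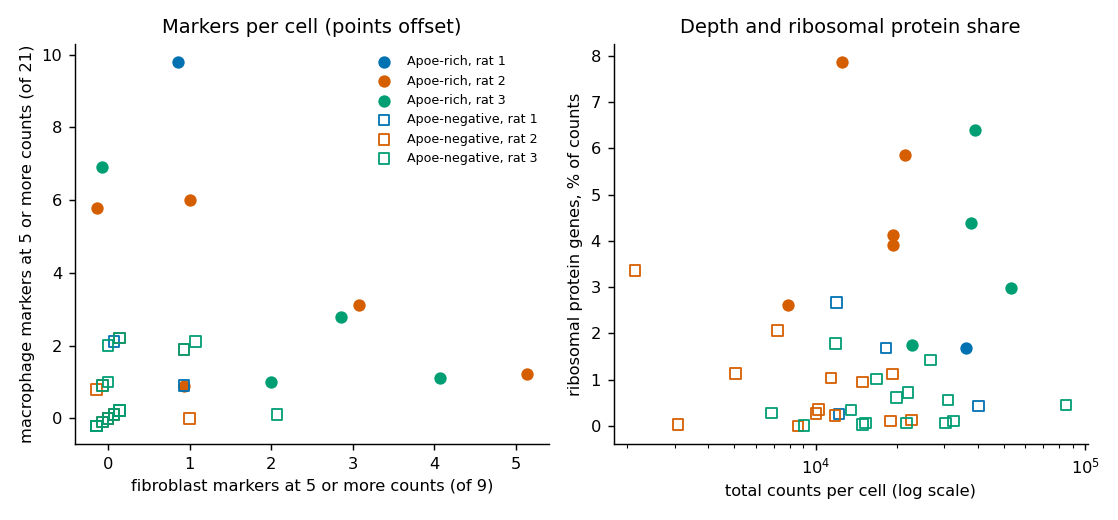
Left, macrophage markers against fibroblast markers at 5 or more counts in each cell, with points offset slightly so that they do not hide each other. Right, percent of counts in ribosomal protein genes against total counts per cell on a log axis. Filled circles are Apoe-rich and open squares Apoe-negative cells, coloured by rat, and Apoe-rich cells have at most 10 macrophage and 5 fibroblast markers and ribosomal protein shares of 1.69% to 7.86%.

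Mitochondrially encoded genes took 0.314% of counts at the median in Apoe-rich cells and 0.0637% in Apoe-negative cells, with highest values of 1.53% and 7.96%. Of the 13 genes, 36.0% ± 24.0 were at 5 or more counts in Apoe-rich and 7.44% ± 3.88 in Apoe-negative cells, and with thinning the difference of 28.6 points became 2.16 points, with the sign turned in rat 1, and without rat 1 it was 16.9 points. For 20 translation and housekeeping genes the shares were 25.0% ± 10.0 and 10.6% ± 2.77, and the difference of 14.4 points became 4.94 points with thinning, with the sign turned in rat 1 (SD, n = 3 rats). Of 24 features found in nearly every cell, 96.7% ± 0.84 were at 5 or more counts in Apoe-rich and 91.5% ± 5.22 in Apoe-negative cells (SD, n = 3 rats), close to the top of that scale. With thinning they were less frequent in Apoe-rich cells in 3 of 3 rats, at 79.8% against 84.9%, and their summed level had a median of 130564 CPM against 218999 CPM. Pcdh10, a protocadherin, had a median of 726.5 counts in Apoe-rich cells and 857 in Apoe-negative cells and was at 5 or more counts in all 42 cells of both classes.

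Among the other genes of smallest p, several held their sign in 3 of 3 rats without passing edgeR's threshold. They were picked by p from the same rats, so the shared sign is no separate support. Eif5a, a translation factor, had 294 and 120 counts in 2 Apoe-rich cells and 4 or fewer in the other 8, against 2 at most in Apoe-negative cells, with a log2 ratio of 5.17 ± 1.37. S100a6, a calcium-binding protein, had 58, 20, 13 and 2 counts in 4 Apoe-rich cells and 1 at most in Apoe-negative cells, with a log2 ratio of 4.63 ± 0.32 (SD, n = 3 rats for both; adjusted p = 0.188 for both, edgeR). Prdx1, a peroxide-reducing enzyme, had 85, 53, 24, 14 and 5 counts in 5 Apoe-rich cells and 2 at most in Apoe-negative cells. B2m, the light chain of MHC class I, had 152, 52, 44, 31, 30 and 1 counts in 6 Apoe-rich cells and 20 at most in Apoe-negative cells. Each of these genes rested on a different handful of cells, and the other Apoe-rich cells had no or few counts. Nubp1, Elk3 and Ppp1r14b behaved likewise, with 5 or more counts in 3, 2 and 3 Apoe-rich cells and in 0 Apoe-negative cells (adjusted p = 0.188 each, edgeR). Ccdc152 had 470, 55, 54, 25, 16 and 12 counts in 6 Apoe-rich cells and 3 at most in Apoe-negative cells. That gene overlaps Selenop, the gene of a secreted selenium carrier, and whether the counting used strand is not given in the sources used here, so its counts may belong to either.

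The lower genes of smallest p rested on few Apoe-negative cells. Rbpj, the DNA-binding factor of Notch signalling, had 2 and 1 counts in 2 Apoe-rich cells and 0 in 8, against 5 or more counts in 5 of 32 Apoe-negative cells and 219 at the most, a log2 ratio of -5.53 ± 1.51 (SD, n = 3 rats; adjusted p = 0.19, edgeR). Ahcy, the hydrolase of S-adenosylhomocysteine, had 1 count in 1 Apoe-rich cell, against 5 or more counts in 6 of 32 Apoe-negative cells and 116 at the most (log2 ratio -4.58 ± 0.78, SD, n = 3 rats; adjusted p = 0.188, edgeR). Ndufs8, a subunit of respiratory complex I, and Tubb2a, a beta tubulin, were at 0 in all 10 Apoe-rich cells and at 5 or more counts in 4 and 5 of 32 Apoe-negative cells. Against a floor of 3 counts over the Apoe-rich cells they were at least 37.6-fold and 20.2-fold lower there, or at least 13.5-fold for Ndufs8 without rat 2 cell 12 and 12.0-fold for Tubb2a without rat 2 cell 15. Most Apoe-negative cells also had 0 to 4 counts of these 4 genes, so the classes overlapped. A left-out cell, rat 3 cell 38 with 31 Apoe counts, had 519 counts of Ndufs8, against 159 at the most in Apoe-negative cells. Ube2v2, Zfp365, Tspan13 and Acot1 completed the 8 lower genes of smallest p, at 5 or more counts in 3 to 6 of 32 Apoe-negative cells and 0 or 1 of 10 Apoe-rich cells. By thinned shares Gtf3c2, Arglu1, Ac1576, Fan1 and Fam20b were furthest to the lower side, for example Gtf3c2 with 21.6% of Apoe-rich and 57.9% of Apoe-negative cells at 5 or more counts. Their adjusted p-values by edgeR ran from 0.986 to 0.999.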

How the data were processed

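Raw counts per gene and cell were deposited by the authors as 1 table of 22081 genes, with no normalization; per the labels' protocols, libraries were made with the SMART-Seq Single Cell Plus kit. The sources used here name no aligner, counter, genome build or strand setting. Each of 52 columns was matched to its cell and rat by title, 0 columns were left over and 0 pairs were identical. The classes, gene lists and named genes were chosen with earlier results of these data known. Counts were summed per rat and class and tested with edgeR 4.0.16 (quasi-likelihood, TMM scaling, filterByExpr, rat as a block because the classes share animals) in R 4.3.3, with DESeq2 1.42.0 as an alternative. Apoe stayed in library sizes and out of tests. Ranges, shares and thinning used Python 3.11.15, numpy 2.4.6, pandas 2.3.3 and scipy 1.17.1. The fit was also run on simulated data, with the share of changes recovered not reported here, so 0 calls do not measure how many genes differ. Named genes were Ctsb, Gpnmb and Fth1, the 12 higher and 8 lower of smallest p, the 10 higher and 5 lower of largest thinned difference in share of cells, and the 3 most frequent members of each of 29 lists. Not every gene so named is reported here. Of 505 list members 491 had a row. Pooled cells without molecular identifiers make floors and folds cover counting error only. Cells were picked singly, and no doublet caller was run.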

Additional observations from a re-analysis of the deposited data

Results flagged for a closer look

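Single cells lay far from the other Apoe-rich cells in 4 of 15 checks made. The cutoff flags about 1 in 20 for normally distributed values only. Levels here were skewed with many zeros and the checks shared the same cells, so an excess over chance cannot be read from them. The 4 were Gpnmb in rat 2 cell 7 (11341.9 CPM), Sparc in rat 3 cell 33 (6143.45 CPM), Tmsb4x in rat 3 cell 39 (45804.7 CPM) and Ccdc152 in rat 3 cell 39 (8852.06 CPM).

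Cells left out for having 1 to 49 Apoe counts also held some of these transcripts above the highest Apoe-negative cell. Rat 2 cell 27, with 15 Apoe counts, had 3 macrophage markers at 5 or more counts, 18 counts of Ctsb, 8 of Gpnmb, 226 of Col3a1 and 79 of Vim. Its 688 counts of Fth1 lay above the highest Apoe-rich cell, at 472. Rat 2 cell 19, with 39 Apoe counts, had 3 lysosomal proteases or cystatins at 5 or more counts, 26 counts of Ctsb and 4 of Col3a1. Sparc had 16 counts in rat 2 cell 18 and 16 in rat 3 cell 31. Rat 3 cell 38, with 31 Apoe counts, had 519 counts of Ndufs8, a gene at 0 in all Apoe-rich cells.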

How the results depend on the processing

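Under edgeR 0 genes were called in either direction under every rescaling, other Apoe threshold, depth setting and left-out rat or cell, except that without the filter on low sums Ctsb alone was called (1 higher, adjusted p = 0.00053 among 17994 genes; edgeR). Without the replicate block, which is set by the shared animals, 0 were called too, with a smallest adjusted p of 0.0648 by edgeR, and 47 higher and 14 lower at an unadjusted p under 0.05. DESeq2 called 62 higher and 13 lower and had 87 and 33 at an unadjusted p under 0.05. The unadjusted counts of edgeR, 44 higher and 12 lower as reported, were 223 and 290 without the filter, 22 and 1 with thinning, and 7 lower at 100 or more Apoe counts. They ran from 35 to 121 higher and from 9 to 46 lower over the rats and cells left out, the highest of each without rat 1 cell 4, the only Apoe-rich cell of that rat, while without rat 3 there were 74 higher. The cause of these shifts was not tested. RLE scaling moved the median log2 fold change from -0.18 to -0.07.

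Leaving out rats or cells, the difference in list share ran from 12.6 to 29.0 points for macrophage identity, 13.3 to 33.2 for lysosomal proteases, 14.4 to 21.3 for fibroblast and 17.5 to 18.2 for ribosomal protein genes, and in library total from 9628 to 14919 counts. The lowest macrophage and lysosomal values came without rat 1. Values of the other lists without rat 1, and folds without single cells, were chosen after seeing the data. At 1 or more counts the fibroblast difference was 6.19 points, the ribosomal protein difference 26.95 and the erythroid difference 3.39, which reverses its sign, and thinning gave 9.90 for ribosomal protein genes. Fan1 reversed to a log2 fold change of 0.00584 without the replicate block and ran from -1.28 to 0.00824 over the rats and cells left out, the highest without rat 3. With 10 Apoe-rich cells of 7908 to 53095 counts, most genes have few counts, and an absence in these cells is not detectable at this depth.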
